A study of Danio rerio with 8 samples.

Results

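Mitochondrial biogenesis is controlled in the nucleus by a small set of regulators, and 8 genes of this kind were followed in the zebrafish retina: *esrra*, *esrrga*, *ppargc1a*, *ppargc1b*, *nrf1*, *tfam*, *gabpa* and *polg*. They were taken by gene symbol from the 32520 genes of the count table, and all 8 were among the 17144 genes with enough counts to be tested. Bulk RNA-seq had been performed on 4 retina samples from *bbs2* -/- homozygous mutants and 4 from their *bbs2* +/+ wild-type siblings. The mutants carry a mutation in a subunit of the BBSome, a complex that moves membrane proteins in cilia, and their cone photoreceptors degenerate over time. Fish of both genotypes were 6 months old, came from crosses of heterozygotes, included both sexes and were dark-adapted for 16 to 20 h. Each sample was a pair of retinas, dissected with as little retinal pigment epithelium (RPE) as possible. The comparison asks how transcript levels differ in mutant retinas while degeneration is under way.

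As background, the coactivators of the PGC-1 family do not bind DNA themselves. They work through nuclear receptors, above all the estrogen-related receptors (ERRs), which occupy genes of the respiratory chain, the tricarboxylic acid (TCA) cycle and fatty acid oxidation. NRF1 and the GABP complex activate nuclear genes for respiratory subunits and for TFAM, which packages mitochondrial DNA (mtDNA) and starts its transcription, while POLG copies mtDNA. Photoreceptors pack mitochondria densely into their inner segments, and these roles are known mainly from mammals.

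Library totals were 7289910 to 11496801 counts in the mutants and 6279179 to 8442827 in the wild-types. Of all tested genes, 28.1% were called at a false discovery rate (FDR) of 0.05 by edgeR's quasi-likelihood test, 15.2% higher and 13.0% lower in mutants. Higher genes made up 54.0% of the calls, but 71.3% when libraries were scaled by their totals and 61.2% on log2 TPM (pseudocount 0.1), and scaling by totals moved the median log2 fold change (log2FC) of all genes to 0.09, against -0.01 with the TMM scaling used here. Markers of other cells differed strongly between the genotypes. Of 23 cone markers tested, 18 were lower and 2 higher, with a summed level of 10607 to 12802 CPM (counts per unit of TMM-adjusted library size, TMM being the scaling of edgeR) in mutants against 23709 to 25256 in wild-types. All 14 RPE markers tested were higher (1396 to 2002 against 75.3 to 211 CPM, with *ttr* at 0 in every library), and so were all 13 microglia and macrophage markers (283 to 374 against 65.9 to 94.8 CPM). Of 24 markers of horizontal, bipolar, amacrine and ganglion cells, 8 were lower and 0 higher by edgeR (0 higher at an unadjusted p under 0.05), with sums of 3836 to 4023 CPM in mutants and 4314 to 4633 CPM in wild-types. Rod markers summed to 26808 to 38040 CPM in mutants and 24638 to 31232 CPM in wild-types. The mutated gene *bbs2* was at 27.3 to 28.8 CPM in mutants and 39.8 to 45.5 CPM in wild-types.

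Of the 8 regulators, *esrra* fell in mutant retinas, and the other 7 did not pass the test. *esrra* was 0.646-fold its wild-type level (95% interval 0.553 to 0.756), and for the remaining genes the log2FC lay between -0.17 (*esrrga*) and 0.21 (*ppargc1a*). The 1 call of 8 stands beside the background of 13.0% of genes called lower, and the 0 higher calls beside 15.2%. At an unadjusted p under 0.05, 1 regulator was higher (*ppargc1a*) and 2 were lower (*esrra*, *esrrga*), and DESeq2 and limma-voom likewise called 0 higher. The median log2FC was 0.01 over the 8 regulators and -0.01 over all tested genes. By complete separation of the libraries, 1 regulator (*esrra*) lay lower in mutants and 0 lay higher, where 13.9% and 15.4% of all tested genes did so.

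**Figure D1:**
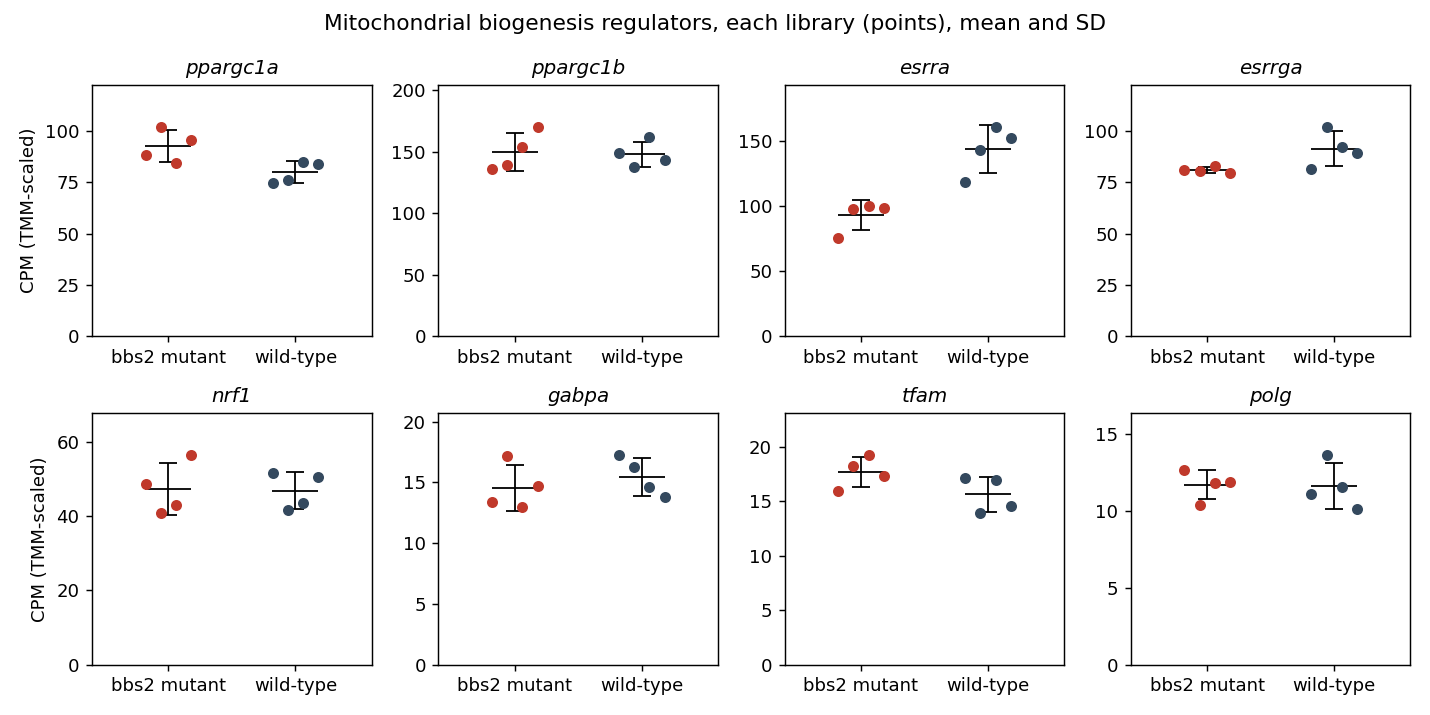
Level of each of the 8 regulators in CPM after TMM scaling (vertical axes from 0), with *bbs2* mutants left and wild-types right; points are single libraries, the long bar is the mean and the whiskers are 1 SD (n = 4). The mutant points of *esrra* (75.9 to 99.8 CPM) all lie under its wild-type points (119 to 161 CPM), while the genotypes overlap in the other 7 panels.

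The coactivators come first in the pathway. *ppargc1a* (ENSDARG00000067829) encodes PGC-1alpha, the inducible coactivator best known for driving mitochondrial biogenesis in muscle and brown fat of mammals. It had 88.0, 102, 84.4 and 95.7 CPM in the mutants 1 to 4, against 74.4, 76.1, 84.6 and 84.0 CPM in the wild-types 1 to 4. The lowest mutant, number 3, sat just under the highest wild-type, and the other mutants lay above all wild-types. The log2FC of 0.21 (SE 0.08, 95% interval 0.04 to 0.38) missed the threshold (edgeR adjusted p = 0.0640). It crossed the threshold without mutant 3 (0.27, edgeR adjusted p = 0.0299) and with scaling by library totals (0.31, edgeR adjusted p = 0.0101), where the log2FC relative to the median of all genes was 0.23, as it was at 0.22 under TMM. *ppargc1b* (ENSDARG00000101569) encodes PGC-1beta, a related coactivator with high basal expression in oxidative tissues of mammals. Its levels were 136, 139, 153 and 170.0 CPM in mutants and 149, 138, 162 and 143 CPM in wild-types. These ranges overlapped almost wholly, with a log2FC of 0.02 (95% interval -0.16 to 0.19, edgeR adjusted p = 0.918).

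The nuclear receptors of the set behaved unequally. *esrra* (ENSDARG00000069266) encodes ERRalpha, an orphan receptor that binds respiratory and TCA cycle genes and the main DNA-bound partner of PGC-1alpha. Mutant libraries 1 to 4 had 738, 1015, 1148 and 735 counts, which is 75.9, 97.7, 99.8 and 98.3 CPM. Wild-type libraries 1 to 4 had 715, 1141, 1319 and 1206 counts, which is 119, 143, 161 and 152 CPM. Both genotypes had their lowest value in library 1, and even the lowest wild-type exceeded the highest mutant. The mean was 92.9 ± 11.4 CPM in mutants and 144 ± 18.3 CPM in wild-types (SD, n = 4 each), a log2FC of -0.63 (SE 0.11, 95% interval -0.86 to -0.40, edgeR adjusted p = 0.000421). This call held in all 17 alternative analyses, with a log2FC of -0.71 to -0.53. In bulk tissue, fewer cells that express *esrra* and less *esrra* RNA per cell cannot be told apart. Summed markers in the same libraries lay on both sides of their wild-type mean. Lower were cones (0.481 of it), skeletal muscle (0.862), horizontal, bipolar, amacrine and ganglion cells (0.880) and Muller glia (0.954). Higher were endothelium and blood (1.04), rods (1.24), microglia and macrophages (4.36) and RPE (13.1). These are ratios of means, and some of the sums overlapped between the genotypes. Overlap was seen for skeletal muscle (45.8 to 66.8 CPM in mutants, 39.6 to 114 CPM in wild-types) and Muller glia (1907 to 1956 against 1788 to 2263 CPM). Endothelium and blood (78.5 to 96.2 against 75.1 to 88.0 CPM) and rods overlapped too. Single markers were mixed where sums overlapped. Of 11 Muller glia markers tested, 3 were higher and 2 lower, with a median log2FC of 0.09, opposite in sign to their sum. Among 20 rod markers, 5 were higher and 2 lower (median 0.13). Only 3 of 22 skeletal muscle markers and 7 of 12 endothelium and blood markers could be tested, with 0 and 1 called higher and 0 lower in both. The part of these cell types in the *esrra* difference, or in that of any other gene described here, was not tested.

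*esrrga* (ENSDARG00000004861) encodes an ERRgamma, a receptor that in mammals maintains oxidative metabolism in heart and neurons. Its mutant values were closely spaced at 80.9, 80.7, 82.7 and 79.6 CPM, against 81.6, 102, 92.3 and 89.3 CPM in wild-types. Only wild-type 1 lay within the mutant range. The log2FC was -0.17 (95% interval -0.34 to -0.01) and was not called (edgeR adjusted p = 0.109), but it was called lower without wild-type 1 (-0.23, edgeR adjusted p = 0.0435).

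*nrf1* (ENSDARG00000000018) encodes nuclear respiratory factor 1, which binds promoters of many genes for respiratory subunits and mitochondrial import. It had 48.8, 40.8, 43.0 and 56.5 CPM in mutants against 51.7, 41.5, 43.7 and 50.7 CPM in wild-types, a log2FC of 0.01 (95% interval -0.23 to 0.25, edgeR adjusted p = 0.968). *gabpa* (ENSDARG00000069289) encodes the DNA-binding subunit of the GABP complex, also called NRF-2. It stood at 13.4, 17.1, 13.0 and 14.7 CPM in mutants against 17.2, 16.3, 14.6 and 13.8 CPM in wild-types, a log2FC of -0.09 (95% interval -0.38 to 0.20, edgeR adjusted p = 0.690). In both genes the libraries of the genotypes were interleaved.

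The effectors that act inside the organelle were also not called. *tfam* (ENSDARG00000063145) had 15.9, 18.2, 19.2 and 17.3 CPM in mutants against 17.1, 13.9, 17.0 and 14.5 CPM in wild-types. In mutants 2, 3 and 4 the value exceeded every wild-type value, and the log2FC was 0.18 (95% interval -0.08 to 0.45, edgeR adjusted p = 0.314). *polg* (ENSDARG00000060951), the catalytic subunit of the mtDNA polymerase, had 12.7, 10.4, 11.8 and 11.9 CPM in mutants against 11.1, 13.6, 11.6 and 10.1 CPM in wild-types. Its values overlapped fully, with a log2FC of 0.01 (95% interval -0.30 to 0.32, edgeR adjusted p = 0.976). The intervals of *gabpa*, *tfam* and *polg*, which had the fewest counts, are the widest of the set. These intervals, and those of *nrf1* (-0.23 to 0.25) and *ppargc1b* (-0.16 to 0.19), reach the size of the *esrrga* log2FC (-0.17) in at least 1 direction. Differences of that size are therefore not excluded for any of these genes.

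Levels per transcript length, in the deposited TPM, placed the regulators in the same order in both genotypes. *esrra* was highest (84.3 ± 5.87 TPM in mutants, 129 ± 18.7 TPM in wild-types; SD, n = 4 each), followed by *esrrga* (76.2 against 84.6 TPM), *ppargc1a* (67.2 against 57.0 TPM) and *ppargc1b* (37.7 against 36.8 TPM). The DNA-binding factor *nrf1* (29.5 against 28.6 TPM) and *tfam* (24.3 against 21.2 TPM) came next, with *gabpa* (6.94 against 7.27 TPM) and *polg* (4.40 against 4.29 TPM) at the bottom. The top of the order was spread out in wild-types and drew together in mutants. In wild-types *esrra* ranged from 105 to 150.0 TPM, above *esrrga* (74.1 to 96.0 TPM), and no neighbours in the order overlapped. In mutants *esrra* (77.6 to 91.1 TPM) overlapped *esrrga* (69.8 to 85.2 TPM), which overlapped *ppargc1a* (55.0 to 71.8 TPM). *ppargc1b* also overlapped *nrf1*, and *nrf1* overlapped *tfam*, while *ppargc1a* lay above *ppargc1b* (34.0 to 43.6 TPM).

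Ratios between members in the same library do not depend on how libraries are scaled to each other. The ratio of *ppargc1a* to *esrra* was 0.799 ± 0.104 in mutants and 0.445 ± 0.037 in wild-types (SD of TPM ratios, n = 4 each), so the coactivator transcript was nearer in level to its receptor's in every mutant. The ratio of *ppargc1a* to *esrrga* was 0.882 ± 0.084 in mutants and 0.678 ± 0.069 in wild-types. The ratio of *esrra* to *esrrga* was 1.11 ± 0.137 in mutants and 1.53 ± 0.169 in wild-types. In these 3 ratios the genotypes did not overlap, and each reached p = 0.0286 in a two-sided exact permutation test, the smallest that 70 arrangements of 4 against 4 libraries allow. The 3 ratios are formed from *ppargc1a*, *esrra* and *esrrga* alone, so each follows from the others and they are not separate results. *esrra* was itself separated between the genotypes, and the ratios that contain it carry that difference. After Benjamini-Hochberg adjustment over the 6 ratios compared the exact permutation p was 0.0571, so none passed 0.05. With only 3 of 6 ratios at the smallest possible p, the adjusted value could not be lower, whatever the size of the differences. The adjusted test therefore cannot decide on these 3 ratios. The ratios *ppargc1a* to *ppargc1b* (1.79 against 1.55), *nrf1* to *gabpa* (4.29 against 3.98) and *tfam* to *polg* (5.60 against 5.03) overlapped between genotypes, with exact permutation p of 0.143, 0.571 and 0.457 before adjustment.

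**Figure D2:**
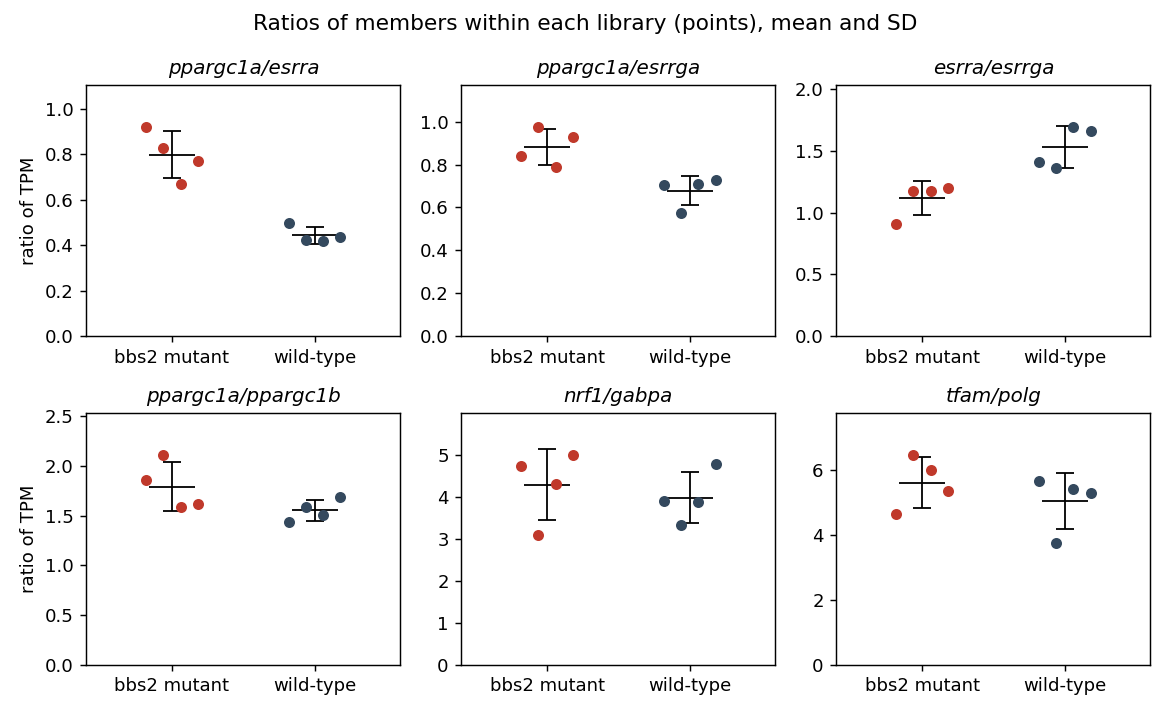
Ratio of the TPM of 2 regulators within each library, for 6 pairs, with *bbs2* mutants left and wild-types right (linear axes from 0); points are libraries, long bars means and whiskers 1 SD (n = 4). In *ppargc1a*/*esrra* the mutants span 0.672 to 0.922 and the wild-types 0.418 to 0.499, and the lower panels overlap.

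The other genes of both families moved more than most of the 8 regulators. As for *esrra*, a change in the cells present and a change in RNA per cell cannot be told apart for them. *pprc1*, which encodes the third PGC-1 coactivator, known from mammalian cells as a serum-inducible one, had 18.4, 13.1, 14.2 and 15.9 CPM in mutants against 2.98, 2.75, 3.05 and 2.53 CPM in wild-types. Every mutant lay far above every wild-type, a log2FC of 2.44 (SE 0.18, edgeR adjusted p = 1.15e-07). The remaining 3 ERR genes fell. *esrrb*, for ERRbeta, a receptor known for supporting rod survival in mouse, had 15.8, 17.8, 20.4 and 14.0 CPM in mutants against 38.1, 27.3, 29.4 and 32.9 CPM in wild-types (log2FC -0.89, SE 0.14, edgeR adjusted p = 0.000132). *esrrgb*, the other ERRgamma gene, had 4.22, 6.93, 5.65 and 6.96 CPM in mutants against 22.5, 17.3, 8.66 and 14.5 CPM in wild-types (log2FC -1.40, SE 0.27, edgeR adjusted p = 0.00161). *esrrd*, a fish ERR gene, had 46.8, 93.8, 114 and 72.5 CPM in mutants against 147, 146, 188 and 256 CPM in wild-types, and its log2FC of -1.17 (SE 0.32, edgeR adjusted p = 0.0380) is the least secure of these. Its libraries did not overlap, but the call was lost in 8 of 17 alternatives, with adjusted p of 0.0760 and 0.0981 without mutant 2 or 4, and of 0.0524, 0.0522, 0.0784 and 0.0741 without wild-type 1, 2, 3 or 4.

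Summed over 5 ERR genes the level was 270.0 ± 21.2 TPM in mutants and 458 ± 59.5 TPM in wild-types (SD, n = 4 each), without overlap (241 to 287 against 390.0 to 524 TPM). Summed over 3 PGC-1 genes it was 112 ± 11.7 TPM in mutants and 94.97 ± 7.28 TPM in wild-types, with overlapping ranges (95.4 to 121 against 89.8 to 106 TPM). The sums were formed after the single genes had been seen and carry no test. Among the ERR genes, *esrrd* had the highest mean in both genotypes (90.5 TPM in mutants, 204 TPM in wild-types) and the largest difference in means. The fall of the ERR sum thus leans on the gene with the least secure call. Most PGC-1 transcripts in both genotypes were of *ppargc1a* and *ppargc1b*, with *pprc1* at 6.83 TPM in mutants and 1.22 TPM in wild-types on average.

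**Figure D3:**
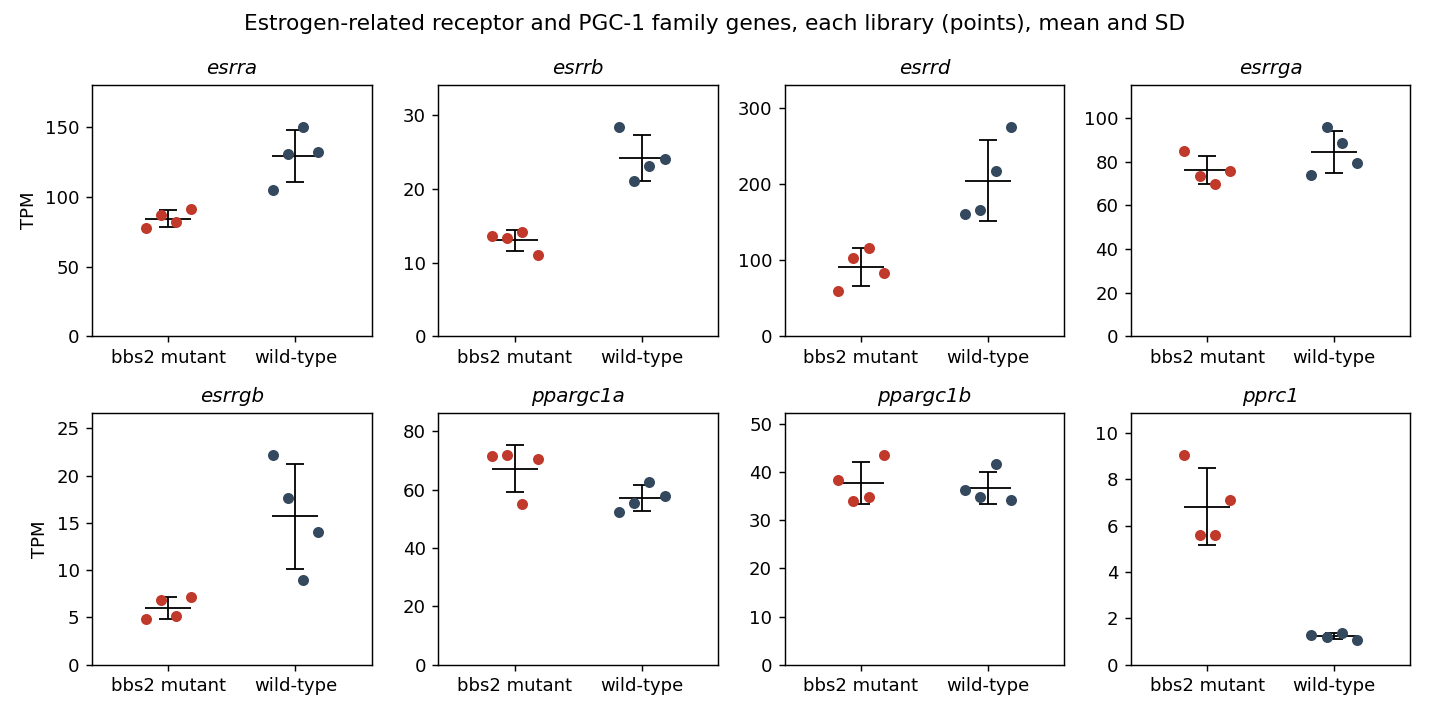
Level in TPM (vertical axes from 0) of the 5 ERR genes and the 3 PGC-1 coactivator genes, with *bbs2* mutants left and wild-types right; points are libraries, long bars means and whiskers 1 SD (n = 4). The mutants of *esrra*, *esrrb*, *esrrd* and *esrrgb* lie wholly under the wild-types, those of *pprc1* wholly above, and *esrrga*, *ppargc1a* and *ppargc1b* overlap.

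**Figure D4:**
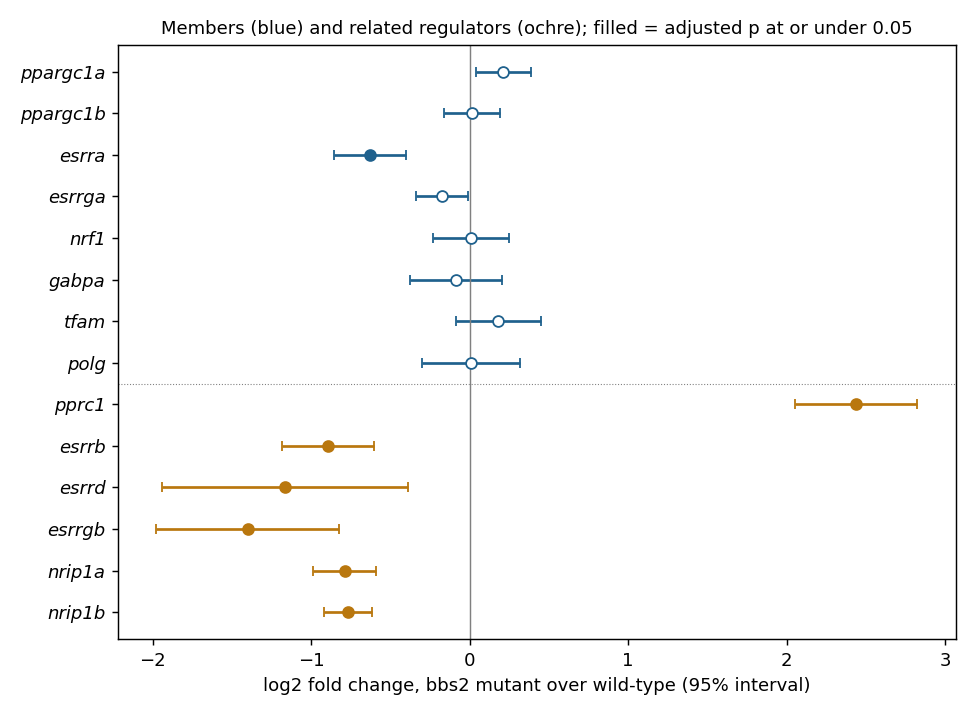
Log2FC of *bbs2* mutant over wild-type with its 95% interval for the 8 regulators (upper rows) and for 6 related genes of the same families and of the corepressor RIP140 (lower rows); filled points have an edgeR adjusted p at or under 0.05. Only *esrra* is filled among the 8, at -0.63. The 6 related genes run from -1.40 (*esrrgb*) to 2.44 (*pprc1*). They were picked with their calls known, so that all 6 are filled follows from the choice.

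A wider list of 47 tested partners of the PGC-1 and ERR proteins (nuclear receptors, coregulators and upstream kinases, those family genes included) had 9 higher and 12 lower genes, against 15.2% and 13.0% of all genes, with a median log2FC of -0.05. With scaling by library totals the count was 12 higher and 9 lower. Both genes for RIP140, a corepressor of ERR targets in mouse muscle and fat, fell: *nrip1a* (log2FC -0.79, SE 0.09, edgeR adjusted p = 1.38e-05) and *nrip1b* (log2FC -0.77, SE 0.07, edgeR adjusted p = 1.15e-06). *nrip1b* had 139, 129, 155 and 138 CPM in mutants against 230, 253, 233 and 241 CPM in wild-types. *thrb*, a thyroid hormone receptor gene needed for red cones, was lower (log2FC -0.39). *rxrgb*, a retinoid X receptor gene (log2FC 2.92), *pparg*, the receptor of fat cell differentiation (2.19), and *flcn*, folliculin (0.71), were higher. Folliculin restrains PGC-1alpha in mouse muscle and fat, and its gene had 37.6, 37.6, 37.8 and 38.7 CPM in mutants against 24.2, 23.4, 20.7 and 24.6 CPM in wild-types. *gabpb1*, for the partner subunit of GABPA, was called lower (log2FC -0.61, edgeR adjusted p = 0.0375) at only 3.75 to 5.68 CPM in mutants and 6.30 to 6.95 CPM in wild-types, and it lost the call in 11 of 17 alternatives, among them the replicate block (0.0571) and each analysis without 1 library except that without mutant 2 (0.0503 to 0.0942).

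By their profile over the 8 libraries, the genes nearest to *esrra* among 10197 candidates were *vps36*, a subunit of the endosomal ESCRT-II complex, *kcnh6a*, a potassium channel gene, and *ogdhl*, an oxoglutarate dehydrogenase gene. After subtraction of each gene's wild-type mean they differed from *esrra* by a root mean square of 0.0379, 0.0538 and 0.0659 on the log2 CPM scale. As the profiles include the genotype difference, their log2FC was similar by selection (-0.64, -0.58 and -0.59). *ogdhl* had 105, 123, 136 and 128 CPM in mutants against 162, 172, 215 and 193 CPM in wild-types. The lowest library of each genotype was again number 1, which the choice by profile also favours.

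A core set of genes that work with TFAM and POLG held no called gene, but it was chosen after the values were seen. Of 10 core partners, 9 were tested over 10 gene identifiers. Among them were the helicase *twnk*, the accessory subunit *polg2*, the single-strand binding protein *ssbp1* and the mitochondrial RNA polymerase *polrmt*. The tested partners were low, with wild-type means from 2.50 CPM (*mgme1*, SE of log2FC 0.32) to 23.4 CPM (*polrmt*, SE 0.11). Their log2FC lay between -0.27 (*tfb1m*) and 0.31 (*mgme1*), with 0 called by edgeR or DESeq2, 0 at an unadjusted p under 0.05 and a lowest edgeR adjusted p of 0.334. In the wider list of mtDNA replication and nucleotide supply, 1 of 24 genes was higher, the mitochondrial protease *lonp1* (log2FC 0.65, SE 0.13), and 1 was lower, *slc25a33*, a pyrimidine nucleotide carrier gene (log2FC -0.82, SE 0.15). *slc25a33* had 55.1, 71.2, 55.9 and 57.7 CPM in mutants against 87.4, 88.2, 110.0 and 137 CPM in wild-types. Of 31 genes of mitochondrial transcription and RNA processing, edgeR called 0 higher (0 at an unadjusted p under 0.05, 0 with DESeq2) and 1 lower, *fastkd3* (log2FC -0.45), a call lost in 6 of 17 alternatives, including those without mutant 2 (edgeR adjusted p = 0.0575) or wild-type 2 (0.0709). These counts lie under the background shares of 15.2% and 13.0%, and the median log2FC was 0.03 and -0.02 in these lists.

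Transcripts of the mitochondrial genome, whose template TFAM packages, summed to 23469 to 29576 CPM over 13 mRNAs in mutants and 28000 to 32109 CPM in wild-types, which overlap. By edgeR 1 was called higher, *mt-nd6* (log2FC 0.27, SE 0.08, edgeR adjusted p = 0.0143), and 0 were called lower, against 15.2% and 13.0% of all tested genes. At an unadjusted p under 0.05, 4 were lower, DESeq2 called 1 lower, and edgeR called 4 lower without mutant 4 and 2 without wild-type 1. *mt-nd6* lies on the strand opposite to the other mRNAs, how strand was treated in counting was not stated in the sources at hand, and the call was lost without wild-type 4 (edgeR adjusted p = 0.0544). The median log2FC of the 13 was -0.11, and -0.01 with scaling by library totals.

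ERRs and PGC-1 are known to act on metabolic genes of the TCA cycle and fatty acid oxidation. Of 31 genes of the TCA cycle and pyruvate entry, 8 fell and 0 rose by edgeR (1 higher at an unadjusted p under 0.05, 0 with DESeq2), against 13.0% and 15.2% of all genes, with a median log2FC of -0.06. Among the 8 were *ogdhb* (log2FC -0.50) and *ogdhl* (-0.59), *pdha1b*, a pyruvate dehydrogenase subunit gene (-1.55), and *pdk3b*, for a kinase that inhibits that enzyme (-0.63). With scaling by library totals 4 were higher and 5 lower, so this balance rests on the scaling, and 5 were lower without mutant 3, mutant 4 or wild-type 4. Also among the 8 lower genes were *sdhdb* and *sdha*, whose calls were lost in 11 and 15 of 17 alternatives. Of 28 fatty acid oxidation genes, 14 rose and 1 fell (*acadsb*, log2FC -0.37, a call lost with library totals and on log2 TPM). The count of higher genes was 12 with DESeq2, 16 with library totals and 11 to 13 when 1 library was left out. Their median log2FC was 0.57 against -0.01 over all genes. The summed level of the list was 538 to 574 CPM in mutants against 416 to 438 CPM in wild-types. *acadvl*, the very long-chain acyl-CoA dehydrogenase of the inner membrane, had 59.8, 58.2, 46.8 and 52.4 CPM in mutants against 32.7, 29.1, 33.3 and 32.2 CPM in wild-types (log2FC 0.77). *hadhb*, of the trifunctional protein, had a log2FC of 0.84 and *ucp2*, for an uncoupling protein family carrier, of 3.60. *slc22a5*, a carnitine transporter gene, had 96, 83, 58 and 67 counts in mutants against 0, 2, 2 and 1 in wild-types. Higher RPE and microglia markers accompanied these genes in all mutants, and their part in this difference was not tested.

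Respiratory chain subunits encoded in the nucleus, the targets for which NRF1 and GABP are named, were called in 8 of 84 cases, 5 higher and 3 lower, which is under the 15.2% and 13.0% of all tested genes, with a median log2FC of 0.02. With scaling by library totals this was 11 higher and 1 lower. Without mutant 4 or wild-type 1 only 2 were higher, without mutant 2, wild-type 3 or wild-type 4 there were 3, and without mutant 1 there were 8; the lower count was 1 without mutant 2, mutant 3 or wild-type 2. Of the 8 calls, *atp5mc3b*, *cycsb*, *ndufa4l*, *sdhdb* and *sdha* were lost in 6, 7, 8, 11 and 15 of 17 alternatives. Each of these was lost without mutant 4 (edgeR adjusted p = 0.0606, 0.0850, 0.134, 0.0551 and 0.0918), among other settings. *cyc1*, *cox8b* and *ndufa4l2b* held in all 17 alternatives. *cyc1*, for cytochrome c1, had 60.9, 66.5, 68.7 and 73.4 CPM in mutants against 43.8, 47.8, 49.0 and 47.3 CPM in wild-types (log2FC 0.52), *cox8b* was higher (1.15) and *ndufa4l2b* lower (-0.81). Of 43 genes of mitochondrial import, chaperones and dynamics, 9 were higher and 3 lower, against 15.2% and 13.0% of all tested genes, with a median log2FC of 0.17. With scaling by library totals 11 were higher and 1 lower, and without mutant 2 the count was 5 higher and 4 lower. *hspd1*, the matrix chaperonin, had 51.7, 47.0, 36.0 and 45.1 CPM in mutants against 17.9, 16.9, 17.7 and 17.9 CPM in wild-types (log2FC 1.35), *hspa9* was higher (0.45), and *pink1*, a kinase of mitophagy, was lower (-0.58). Genes of the *sox* family were set beside *esrra* because the paper cites a zebrafish study in which its knockdown impaired *sox9* and *sox5*. The paper names *sox6* for red cones instead, and summed cone markers were at 0.481 of their wild-type mean. Of the 4 *sox* genes, *sox6* was lower (log2FC -1.36), while *sox9a* and *sox9b* were higher (0.57 and 0.92). *sox5* was not called (-0.16, edgeR adjusted p = 0.0889). The *sox9a* call was lost without mutant 4 (edgeR adjusted p = 0.0666) or wild-type 4 (0.0529), and that of *sox9b* in 8 of 17 alternatives, among them those without mutant 1 or 4 (0.0736 and 0.0955) or wild-type 1, 3 or 4 (0.0648, 0.0600 and 0.0824).

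**Figure D5:**
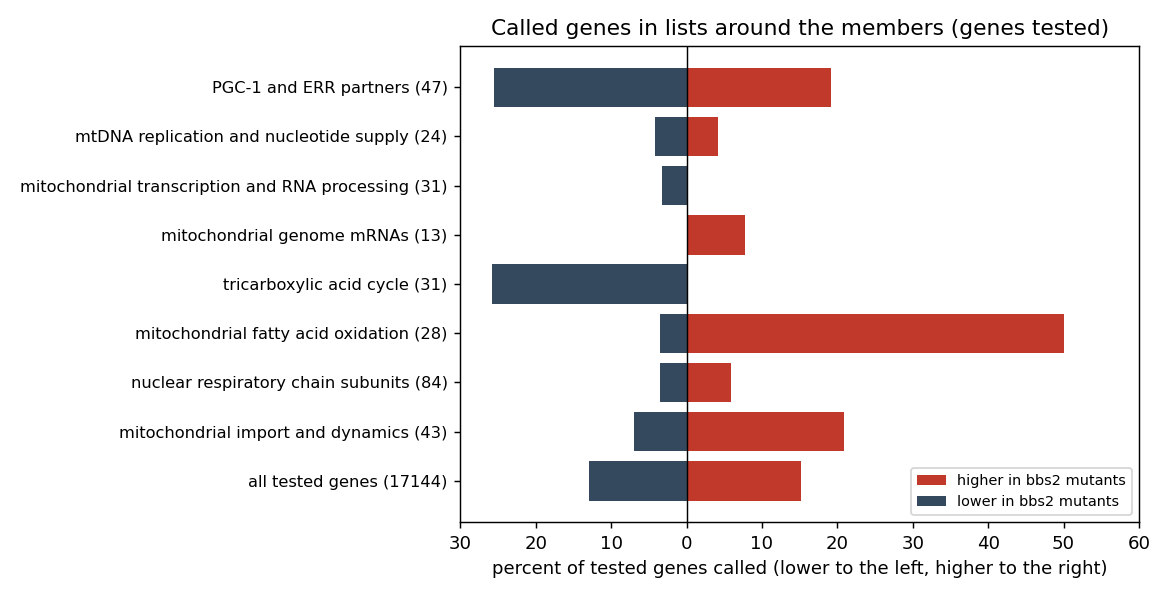
Percent of tested genes called by edgeR at FDR 0.05 in each list around the regulators (number tested in brackets), lower in *bbs2* mutants to the left of 0 and higher to the right, with all 17144 tested genes in the last row. Fatty acid oxidation extends farthest to the right (14 of 28 higher) and the TCA cycle list only to the left (8 of 31 lower), while the lists of mtDNA replication and of mitochondrial transcription, with at most 1 called gene a side, are shorter than the bars for all genes.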

How the data were processed

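Total RNA of 8 retina samples was measured, 4 *bbs2* mutants and 4 wild-type siblings. Groups and replicate numbers follow the sample labels. The authors aligned reads to GRCz11 with STAR, which also gave the gene counts, and tested with DESeq2 1.30.1 in R 4.0.4. They deposited whole-number counts, on which all tests rest, and TPM, used for levels between genes and ratios. The ratio of deposited TPM to counts was checked over the 8048 genes that reached 100 counts in each library. Relative to its library's median, this ratio was the same for a gene in all 8 libraries (100% of genes within 1%). The authors' normalized table and their table of comparisons, which holds fold changes and p-values, were not used.

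Counts were tested with edgeR 4.0.16 in R 4.3.3 by the quasi-likelihood test with robust fitting, TMM scaling, its default low-count filter (minimum count 10) and no covariate besides genotype. P-values were adjusted by Benjamini-Hochberg over 17144 genes at FDR 0.05. The biological coefficient of variation was 13.6%. Replicate libraries differed by more than sampling noise (chi-square per degree of freedom 5.71 to 12.3 between pairs). TPM ratios were compared by two-sided exact permutation tests. The steps were tested on simulated data. Alternatives were DESeq2 1.42.0 and limma-voom (limma 3.58.1), limma on log2 TPM with a pseudocount of 0.1 or 1, DESeq2 size factors, library totals, no filter, a replicate block, counts thinned to equal depth, and leaving out each library (for list counts this was added after seeing the data). Same-numbered libraries of the genotypes were treated as unpaired, since the labels state no pairing. Their deviations correlated at -0.07 to 0.06, against -0.08 to 0.08 for differently numbered libraries, which does not exclude a pairing.

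The regulators and gene lists were chosen with earlier results of these data known. Each identifier of a symbol counts as a gene. Named are all 8 regulators, called genes of each list by smallest p (up to 4 a direction, or all where 5 or fewer were called; a selection is printed), the 3 genes nearest to *esrra* in profile whose average log2 CPM is 3 or more, *bbs2*, and 4 *sox* genes. Outside that rule, *esrrd*, *esrrgb*, *gabpb1* and the core mtDNA partners are named for their family or complex and were chosen after their values were seen. Overlapping genes may share reads. Sequences and coordinates were not used here.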

Additional observations from a re-analysis of the deposited data

Results flagged for a closer look

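In 16 groups of 4 libraries (8 regulators, 2 genotypes), 1 library stood far from its group: *esrra* in mutant 1, at 75.9 CPM, against 97.7 to 99.8 CPM in mutants 2 to 4. Its gap to the nearest mutant was 0.911 of the group's whole range, above Dixon's 95% critical value for 4 values, and chance alone marks about 1 in 20 such groups. Without this library the log2FC of *esrra* was -0.54, against -0.63 with it, and the gene was still called lower. In TPM mutant 1 was at 77.6, also the lowest of the mutants.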

How the results depend on the processing

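The *esrra* call held in all 17 alternatives (edgeR, DESeq2 or limma adjusted p 2.35e-06 to 0.00186), and *tfam* kept its sign and stayed uncalled in all of them. With the replicate block *esrra* had a log2FC of -0.63 (edgeR adjusted p = 1.48e-05) and 2550 genes were higher and 2209 lower. Among the genes named, the calls of *esrrd*, *gabpb1*, *sox9b* and *sdha* were lost under the block. With scaling by library totals *ppargc1a* was called (0.31), *gabpa* had a log2FC of 0.013, 1 regulator was called higher, 2 (*ppargc1a*, *tfam*) were separated upward, and 1335 genes were called lower, against 2221 with TMM. On log2 TPM 1410 (pseudocount 0.1) and 1427 (pseudocount 1) genes were lower. With limma-voom *nrf1* was at -0.00148. Leaving out 1 library gave log2FC ranges of 0.16 to 0.27 (*ppargc1a*), -0.050 to 0.059 (*ppargc1b*), -0.23 to -0.12 (*esrrga*), -0.084 to 0.072 (*nrf1*) and -0.058 to 0.093 (*polg*), with 0 to 1 regulators called higher, 1 to 2 lower and 1765 to 2054 genes lower. The causes were not tested. The log2FC of *ppargc1b*, *nrf1* and *polg* are near 0 with 95% intervals on both sides of 0, and their signs carry no information. Counts of *gabpa*, *tfam* and *polg* are the lowest and their intervals the widest. The p-values of edgeR, DESeq2 and limma set the genotype difference against the spread between libraries. These are 4 a genotype, and 1 fewer in the genotype from which a library was left out. The permutation p-values count arrangements of the libraries.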
